A study of Mus musculus with 12 samples.

Results

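Genes that bring fatty acids into liver cells and hold them there were compared between WT and DKO mouse livers. The set held 10 genes, chosen by symbol for their known role: Cd36, Slc27a1, Slc27a2, Slc27a4, Acsl3, Fabp1, Fabp2, Fabp4, Fabp5 and Dbi. All 10 had a row among the 12284 named genes of the deposited expression table. The values were log2 CPM (the log2 of a gene's reads scaled to its library's total) of polyadenylated liver RNA, from 6 WT and 6 DKO libraries. Both groups were mice with floxed alleles of Acly and of Acss2 (Acly f/f; Acss2 f/f), given an adeno-associated virus of serotype AAV8 at 6 to 8 weeks of age. The virus carried Cre recombinase in the DKO group (AAV8-TBG-Cre) and GFP in the WT group (AAV8-TBG-GFP). TBG is a hepatocyte promoter, so cells of other types in the DKO liver were not the target of the deletion. WT mice thus carried the floxed alleles and a virus too, and the loss of the 2 genes cannot be told apart from any effect of Cre or GFP. A Western diet (Teklad TD.88137) began 1 week after injection and lasted 6 weeks in both groups. Since no label ties a library to a mouse of its own, p-values measure only the spread between these libraries, which may be technical.

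Long-chain fatty acids reach the hepatocyte bound to albumin or inside lipoproteins and enter with the help of membrane proteins such as CD36 and the fatty acid transport proteins of the SLC27 family. Acyl-CoA synthetases then trap them as acyl-CoA, an activity that most SLC27 proteins also have. In the cytosol, fatty acid binding proteins (FABP) carry free fatty acids and the acyl-CoA binding protein, encoded by Dbi, carries their CoA esters, towards oxidation, storage or nuclear receptors. Fabp1 is the liver form and a classical target of PPARα, while Fabp4 and Fabp5 are known from adipocytes, endothelial cells, macrophages and skin.

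The promoters of 4 of these genes are shown because the results turn on them. Fabp1 was the most abundant member per transcript length, and Cd36 and Fabp2 varied together between libraries. Slc27a2 was the 1 member called as different between the groups, close to the threshold (limma adjusted p = 0.0468). The sequences are the 250 bases before the annotated start, read 5′ to 3′ on the strand of the gene, from RefSeq on build GRCm38.p6. Capitals mark matches to 4 motifs. The TATA box was searched as TATAAA on the gene's strand. The other motifs were searched on both strands: the CCAAT box by its name, the GC box as GGGCGG, and a relaxed direct repeat of the kind that PPAR-RXR dimers bind as AGGNCANAGGNCA. They lie at chr6:71199629-71199878 (Fabp1, plus strand), chr2:126552774-126553023 (Slc27a2, plus strand), chr5:17835897-17836146 (Cd36, minus strand) and chr3:122894822-122895071 (Fabp2, plus strand).
Fabp1: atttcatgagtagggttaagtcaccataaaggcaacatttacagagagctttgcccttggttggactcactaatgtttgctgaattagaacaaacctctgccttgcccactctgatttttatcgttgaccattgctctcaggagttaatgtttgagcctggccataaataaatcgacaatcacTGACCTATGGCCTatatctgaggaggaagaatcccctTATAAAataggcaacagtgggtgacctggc
Slc27a2: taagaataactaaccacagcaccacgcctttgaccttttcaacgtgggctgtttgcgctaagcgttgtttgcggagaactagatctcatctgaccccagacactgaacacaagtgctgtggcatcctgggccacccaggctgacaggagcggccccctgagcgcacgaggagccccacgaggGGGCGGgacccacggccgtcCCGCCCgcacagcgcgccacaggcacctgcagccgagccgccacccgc
Cd36: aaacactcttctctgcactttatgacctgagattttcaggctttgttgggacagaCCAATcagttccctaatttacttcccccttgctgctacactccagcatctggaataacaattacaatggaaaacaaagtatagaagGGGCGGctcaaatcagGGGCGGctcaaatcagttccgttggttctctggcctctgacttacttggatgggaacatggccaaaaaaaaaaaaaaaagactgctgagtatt
Fabp2: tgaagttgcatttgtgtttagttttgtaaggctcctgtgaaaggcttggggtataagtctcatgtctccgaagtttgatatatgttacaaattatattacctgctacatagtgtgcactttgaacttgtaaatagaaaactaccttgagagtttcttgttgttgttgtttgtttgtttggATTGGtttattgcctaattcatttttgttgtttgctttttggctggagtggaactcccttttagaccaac
The Fabp1 window held the direct repeat on its minus strand as TGACCTATGGCCT, starting at position -67 (-1 being the last base before the gene's start), and a TATA box starting at -30. The direct repeat was present in 0.338% of 32851 mouse promoters of this length and the TATA box in 7.59%. The repeat overlaps a half-site, AGGTCA on either strand, which occurred in 14% of promoters. The Fabp1 window held a second half-site at -9, Slc27a2 and Cd36 each held 1 half-site without the full repeat, and Fabp2 held none. Slc27a2 had 2 GC boxes in a window of 64% G and C, and Cd36 had 2 GC boxes and a CCAAT in one of 43.2%. Fabp2 had a CCAAT on its minus strand, which 33.8% of promoters had, in a window of 35.6% G and C, and GC boxes were in 32.7% of promoters. A match describes letters only. Promoters were found for 8 of the 10 genes.

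The libraries matched their labels. Acly fell to 17.6% and Acss2 to 22% of the WT level in DKO (limma adjusted p = 0.0165 and 0.00571), with Acly overlapping between the groups in DKO 1. Back-transformed values summed to 905964 to 1087990 CPM per library, read depth is unknown, and 25 to 61 genes per library stood at the lowest value of the table, -3.26 log2 CPM. Of 14 hepatocyte markers 13 were measured, Alb at 15.7 log2 CPM in WT, 10 of them lower in DKO and 1 called, Asgr1, which fell (78.4% of WT). Libraries of a group correlated with each other at a mean r of 0.945 to 0.965 across genes, and WT 1 and DKO 1 had the lowest such mean of their groups.

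Of the 10 genes, 1 fell in DKO and 0 rose, with limma and Benjamini-Hochberg adjustment over all genes at a threshold of 0.05. Over all genes 1.74% were called, 1.12% lower and 0.619% higher in DKO. Another 1 of the 10, Fabp5, had an unadjusted p below 0.05, where 16.4% of all genes did. For 0 of the 10 were the groups free of overlap, against 2.17% of all genes. The median log2 fold change of the 10 was -0.06, with 4 higher and 6 lower in DKO, and that of all genes was 0.00414. With 10 genes, 1 call is no result about the set. The count of called members also moved with single libraries: it was 2 without WT 1, 0 without any of the other WT libraries or without DKO 1, DKO 2, DKO 3 or DKO 4, and 1 without DKO 5 or DKO 6.

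**Figure D1:**
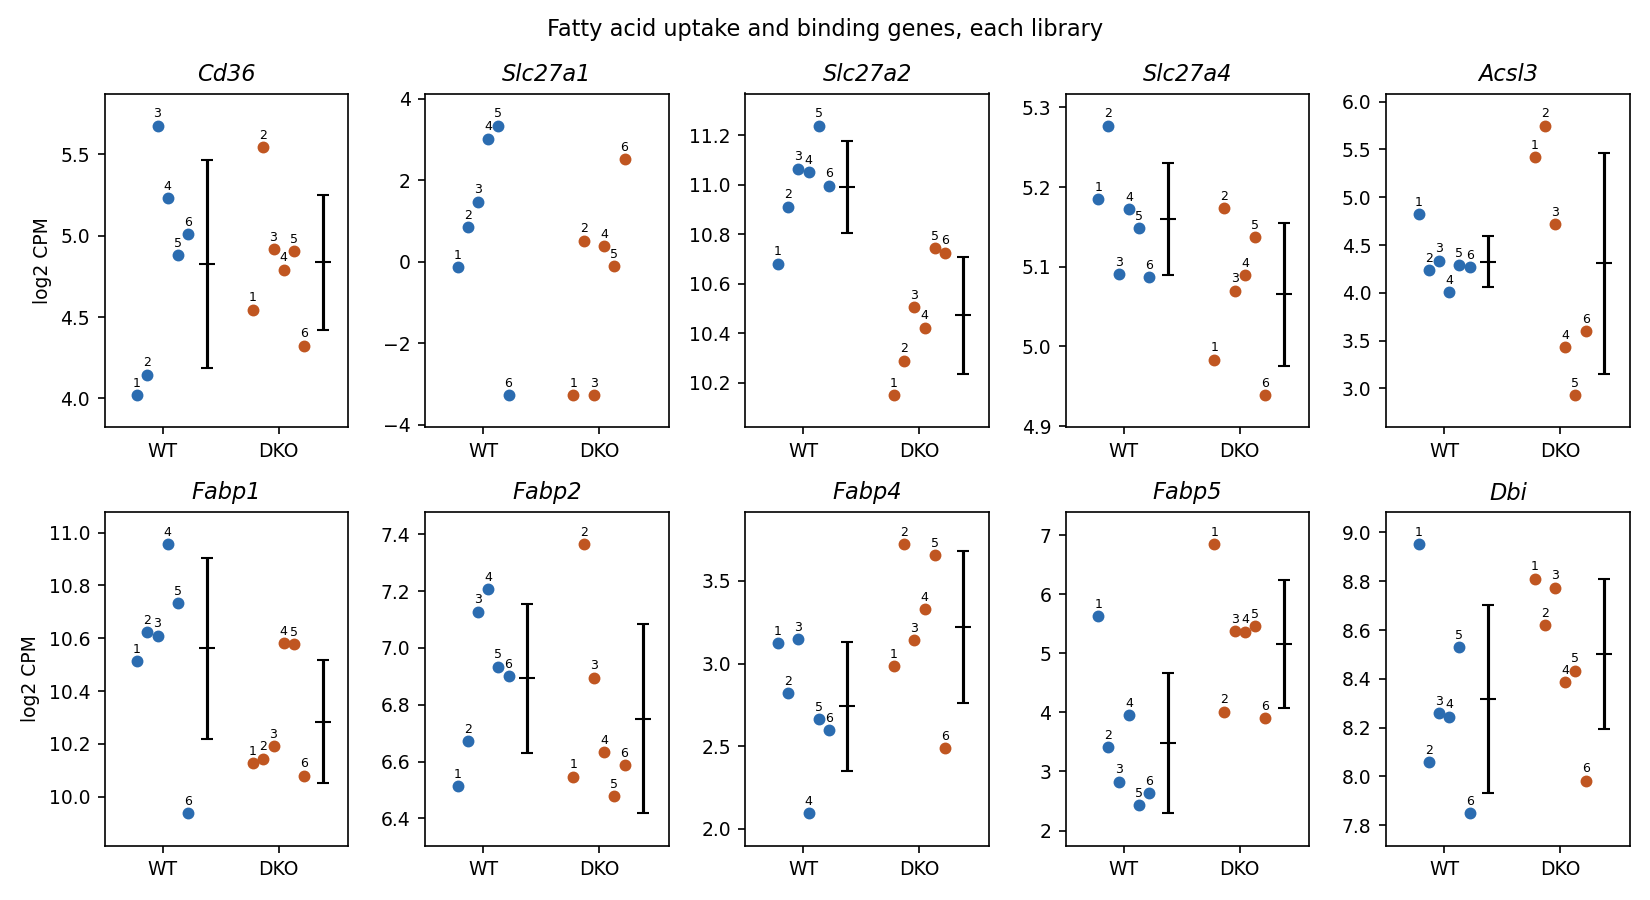
Log2 CPM (vertical axes, which differ between panels) of the 10 genes in each library, WT in blue and DKO in orange, with the replicate number above each point and the mean and SD (n = 6) beside it, left out for Slc27a1 where 3 libraries are at the lowest value of the table. Slc27a2 is lower in DKO with 2 DKO libraries inside the WT range, Fabp5 is highest in the library numbered 1 of each group, and Acsl3 spreads from 2.93 to 5.75 in DKO around a narrow WT group.

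Among transporters, Slc27a2 was the 1 that was called. It encodes FATP2, a transporter of the hepatocyte that is also a very long-chain acyl-CoA synthetase of peroxisomes and the endoplasmic reticulum. Its level was 10.7 log2 CPM in the lowest, 11.02 in the median and 11.2 in the highest WT library, against 10.2, 10.5 and 10.7 in DKO. Every one of the 6 DKO libraries was below the mean of WT and 4 lay below the lowest WT library, while DKO 5 (10.74) and DKO 6 (10.73) lay just above WT 1 (10.68). On average it fell to 69.8% of WT, 10.99 ± 0.19 against 10.47 ± 0.24 log2 CPM (SD, n = 6 each), with a log2 fold change of -0.52 (SE 0.12, 95% interval -0.78 to -0.26, limma adjusted p = 0.0468, exact permutation p = 0.00649).

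The call of Slc27a2 stood close to the threshold. Leaving out 1 library ended it in 9 of 12 cases, with an adjusted p of 0.0209 without WT 1, 0.0431 without DKO 5 and 0.0319 without DKO 6, and above 0.05 without any of the others (up to 0.106, without WT 5). It also ended with limma fitted without the mean trend (adjusted p = 0.0718) and with quantile normalization, which moved the log2 fold change to -0.36 (adjusted p = 0.213). The direction was the same in all 21 alternatives run. Beside it, the 13 hepatocyte markers stood at a median log2 fold change of -0.17, and their summed level was 84213 to 99008 CPM in WT and 71047 to 105142 CPM in DKO; their part in the fall was not tested. In a bulk sample, fewer cells of a type and less RNA per cell cannot be told apart.

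Slc27a4, the gene of FATP4, another transporter with acyl-CoA synthetase activity, was the steadiest member. It spanned 5.09 to 5.28 log2 CPM in WT (median 5.16) and 4.94 to 5.17 in DKO (median 5.08). The groups overlapped, and 3 DKO libraries lay below the lowest WT library. Its log2 fold change was -0.09 (SE 0.07, 95% interval -0.25 to 0.06, limma adjusted p = 0.558, exact permutation p = 0.0693). The spread within groups exceeded that of only 1% of the 500 genes nearest to it in mean level.

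Slc27a1, the gene of FATP1, a transporter known from muscle and adipose tissue, gave no usable mean. It stood at the lowest value of the table in WT 6, DKO 1 and DKO 3. In the other WT libraries it was -0.14, 0.85, 1.48, 3.02 and 3.34 log2 CPM, and in the other DKO libraries 0.52, 0.39, -0.10 and 2.52. Both groups thus reached from the lowest value to over 2 log2 CPM. Its log2 fold change of -1.41 had a 95% interval of -3.92 to 1.09 (limma adjusted p = 0.599, exact permutation p = 0.307).

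Cd36 encodes a scavenger receptor that takes up long-chain fatty acids and oxidized lipoproteins in many cells. It spanned 4.02 to 5.67 log2 CPM in WT (median 4.94) and 4.32 to 5.54 in DKO (median 4.85), and the DKO range lay wholly inside the WT range. WT 1 and WT 2 were the lowest WT libraries and WT 3 and DKO 2 the highest of their groups. The log2 fold change was 0.01 (SE 0.27), and its 95% interval reached from -0.57 to 0.59, which is 67.5% to 150.4% of the WT level. Changes within these limits are compatible with these libraries, and the interval is not the limit of what could be called. The limma adjusted p was 0.992 and the exact permutation p 0.987.

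Acsl3 encodes a long-chain acyl-CoA synthetase of the endoplasmic reticulum and of lipid droplets, and its group means were close while its DKO libraries lay far apart. In WT it lay between 4.01 and 4.82 log2 CPM (median 4.28, SD 0.27). In DKO it was 5.42, 5.75 and 4.72 in DKO 1, DKO 2 and DKO 3 and 3.43, 2.93 and 3.60 in DKO 4, DKO 5 and DKO 6 (SD 1.15). Thus 2 DKO libraries were above every WT library, 3 were below every WT library, and 1 was within the WT range. The log2 fold change of the means was -0.02 (SE 0.41, 95% interval -0.91 to 0.87, limma adjusted p = 0.989, exact permutation p = 0.976), and the difference in spread was not tested. Its sign turned without WT 1, DKO 4, DKO 5 or DKO 6.

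**Figure D2:**
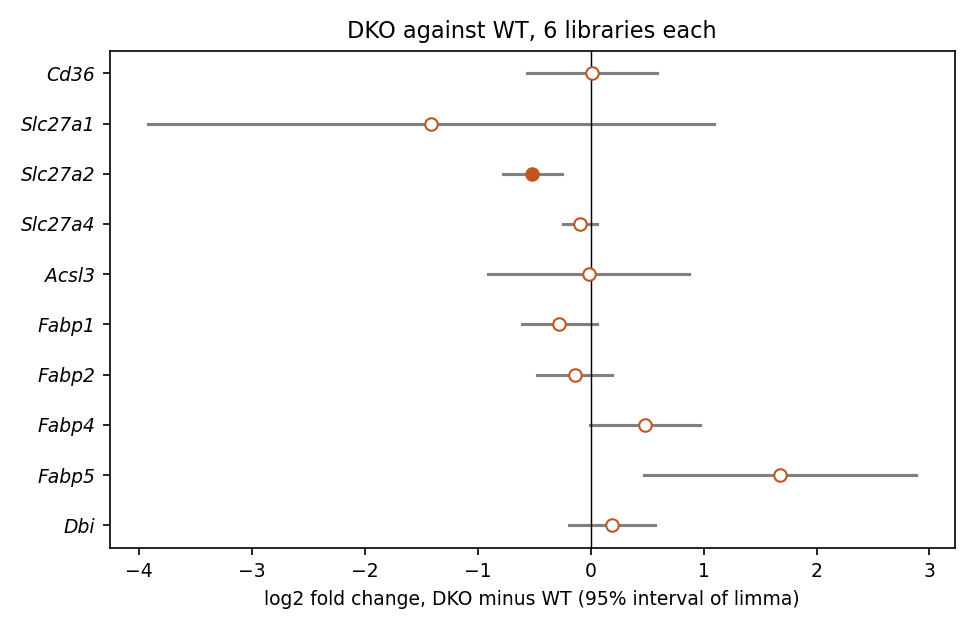
Log2 fold change of DKO minus WT (horizontal axis) for the 10 genes, with the 95% interval of limma; the filled point is the gene called at an adjusted p below 0.05, Slc27a2. The intervals of Slc27a2 and Fabp5 leave out 0, and that of Slc27a1 is the widest of the 10, from -3.92 to 1.09.

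Among the binding proteins, 0 passed the test over all genes, and Fabp5 came closest. Fabp5, the epidermal form, which macrophages and endothelial cells also make, was 2.43 log2 CPM in the lowest, 3.12 in the median and 5.63 in the highest WT library, against 3.90, 5.37 and 6.85 in DKO. All 6 DKO libraries lay above the WT mean of 3.48 and 1 above the highest WT library. WT 1 was far above the other WT libraries, of which the next was WT 4 at 3.95, and DKO 1 was the highest of all 12. The log2 fold change was 1.68 (SE 0.56, 95% interval 0.48 to 2.88), a 3.20-fold ratio that did not pass (limma adjusted p = 0.142, exact permutation p = 0.0390). Without WT 1 it was 2.11 and passed (adjusted p = 0.0306). That fit called 373 genes over all genes, against 214 in the main fit. Without both libraries numbered 1, an alternative chosen after seeing the data, Fabp5 was 1.77 and passed (adjusted p = 0.0342), with 255 genes called. Without 1 of the other 11 libraries it did not pass (adjusted p up to 0.271). With the replicate number as a block in limma, Fabp5 also passed (adjusted p = 0.0178), but whether the numbers pair the libraries is not settled.

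Fabp4, the adipocyte form, was low in these livers. It spanned 2.09 to 3.15 log2 CPM in WT (median 2.74) and 2.49 to 3.72 in DKO (median 3.23). In DKO 3 libraries lay above the highest WT library and DKO 6 lay below the WT mean. The log2 fold change was 0.48 (SE 0.23, 95% interval -0.01 to 0.97, limma adjusted p = 0.313, exact permutation p = 0.0823).

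Among markers of cells known to make Fabp4 or Fabp5, those of macrophages and endothelial cells were also higher in DKO, and those of adipocytes were lower. All 16 macrophage markers were higher in DKO and 4 rose (Gpnmb, Lgals3, Ccr2 and Lyz2), with a summed level of 339 to 632 CPM in WT and 493 to 799 CPM in DKO. WT 1, the WT library highest in Fabp5, was also the WT library highest in macrophage markers (632 CPM), whereas DKO 2, the highest DKO library in markers (799 CPM), had the second lowest Fabp5 of its group. All 14 endothelial markers were higher in DKO and 0 were called by limma (6 at an unadjusted p below 0.05), with 363 to 403 CPM in WT and 377 to 476 CPM in DKO. Of 12 adipocyte markers 4 were measured (Cfd, Lipe, Pck1 and Car3), all lower in DKO and 2 called, Cfd and Car3, which fell. Their sum was 4213 to 6138 CPM in WT and 2940 to 5397 CPM in DKO; Pck1 and Car3, which hepatocytes also express, make up nearly all of it, and Adipoq, Lep and Plin1 were not analysed here. The part of these cells in the values of Fabp4 and Fabp5 was not tested.

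Fabp1, the main binding protein of the hepatocyte, spanned 9.94 to 10.96 log2 CPM in WT (median 10.62) and 10.08 to 10.58 in DKO (median 10.17). WT 6 was the lowest of all 12 libraries, and 4 of 6 DKO libraries lay below the WT mean. Its log2 fold change was -0.28 (SE 0.15, 95% interval -0.61 to 0.05, limma adjusted p = 0.396, exact permutation p = 0.145).

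Fabp2, the intestinal form, was 6.51 to 7.21 log2 CPM in WT (median 6.92) and 6.48 to 7.36 in DKO (median 6.61). DKO 2 was the highest library and DKO 5 the lowest. The log2 fold change was -0.14 (SE 0.16, 95% interval -0.48 to 0.19, limma adjusted p = 0.708, exact permutation p = 0.422). Of 9 enterocyte markers 2 were measured, Apoa4, which the liver makes too and which rose (log2 fold change 1.37, limma adjusted p = 0.0119), and Anpep (-0.30, adjusted p = 0.0668). Their summed level was 372 to 854 CPM in WT and 931 to 1827 CPM in DKO. Apoa4 (mean 8.99 log2 CPM in WT, 10.36 in DKO) makes up most of it, and Anpep (6.82 and 6.52) was lower in DKO. Vil1, Lct and Sis were not analysed here.

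Dbi, the acyl-CoA binding protein, was 7.85 to 8.95 log2 CPM in WT (median 8.25) and 7.98 to 8.81 in DKO (median 8.53). The DKO range lay inside that of WT, although 5 of 6 DKO libraries exceeded the WT mean. The log2 fold change was 0.19 (SE 0.18, 95% interval -0.20 to 0.57, limma adjusted p = 0.661, exact permutation p = 0.368). As with Fabp5, WT 1 was the highest WT library and DKO 1 the highest DKO library.

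To compare levels between genes, CPM was divided by the length of the principal transcript in GENCODE M21. In WT, Fabp1 had a median of 2838 CPM per kb (range 1773 to 3592), above every library's value for any other member. Slc27a2 (714, range 563 to 828) and Dbi (536, range 405 to 870) followed and overlapped, and Fabp2 (125, range 94.7 to 153) stood apart below them. Cd36 (9.07), Fabp5 (8.99), Slc27a4 (8.82), Fabp4 (7.48) and Acsl3 (4.92) had overlapping ranges, though that of Slc27a4 (8.38 to 9.56) lay above that of Acsl3 (4.07 to 7.16). Slc27a1 was lowest at 0.821. In DKO the order of the medians differed in that Dbi (650, range 444 to 789) came before Slc27a2 (484, range 390 to 588), again with overlap. The median of Fabp4 (10.5, range 6.27 to 14.7) came before those of Cd36 (8.47, range 5.89 to 13.7) and Slc27a4 (8.34, range 7.57 to 8.90), which it had followed in WT, and these ranges overlapped too. Fabp5 (41.9, range 15.2 to 117) was the fifth in DKO, and its range reached into that of Fabp2 (92.4 to 171).

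**Figure D3:**
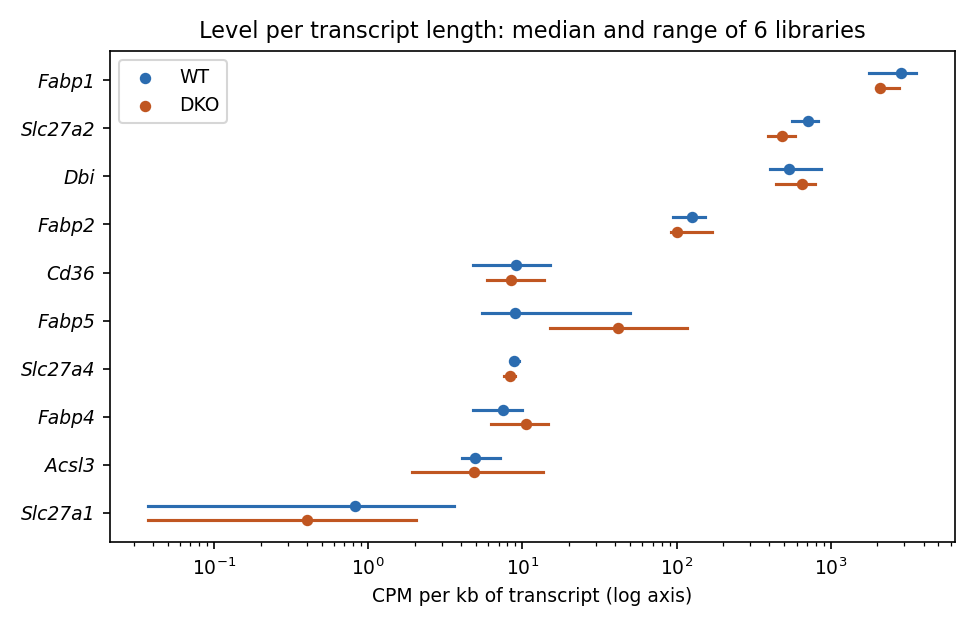
CPM per kb of transcript (horizontal log axis) for the 10 genes, the point being the median and the line the range of 6 libraries, WT in blue and DKO in orange. Fabp1 leads in both groups (2838 in WT and 2081 in DKO), Slc27a2 and Dbi overlap, and the median of Fabp5 is 8.99 in WT and 41.9 in DKO.

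The members differed in how much they varied between libraries of 1 group. Compared with the 500 genes nearest in mean level, the spread within groups was above that of 99% of genes for Fabp5 and Slc27a1, 98.4% for Acsl3 and 96.6% for Cd36. It was near the middle for Slc27a2 (54.4%) and above it for Fabp4 (72.8%), Fabp1 (76.2%), Dbi (84.8%) and Fabp2 (86.2%).

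Some members varied together within the groups. After subtraction of each group's mean, Cd36 and Fabp2 had a Pearson r of 0.84 over the 12 libraries (Spearman rho 0.84), 0.93 among WT, 0.83 among DKO, and 0.83 without WT 1 and WT 3, the libraries farthest from the median of Cd36. Acsl3 and Slc27a2 had a negative r of -0.73 (rho -0.64), -0.70 in WT, -0.82 in DKO, and -0.64 without DKO 2 and DKO 5. That check kept WT 1, the WT library highest in Acsl3 (4.82 log2 CPM) and lowest in Slc27a2 (10.68). The r in WT leans on WT 1 and was not computed without it. Among the other WT libraries, WT 4, the lowest in Acsl3 (4.01), had 11.05 in Slc27a2, between WT 2 (10.91) and WT 5 (11.24). The opposite direction is therefore read from the DKO libraries only. The r of 0.66 between Fabp5 and Dbi (0.68 in WT, 0.63 in DKO) dropped to 0.23 without WT 1 and DKO 1. That of -0.63 between Fabp5 and Slc27a2 (-0.85 in WT, -0.45 in DKO) moved to -0.07 without them. Over the 12 libraries, both thus rested on WT 1 and DKO 1. The r of 0.62 between Slc27a1 and Fabp1 (0.95 in WT, 0.11 in DKO) moved to 0.22 without WT 6 and DKO 1. These are 2 of the 3 libraries with Slc27a1 at the lowest value of the table. The 5 pairs named are those of 45 pairs of members with an r beyond 0.6 in either direction. Values of a library share its scaling and its tissue sample, so the correlations are given as a description.

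**Figure D4:**
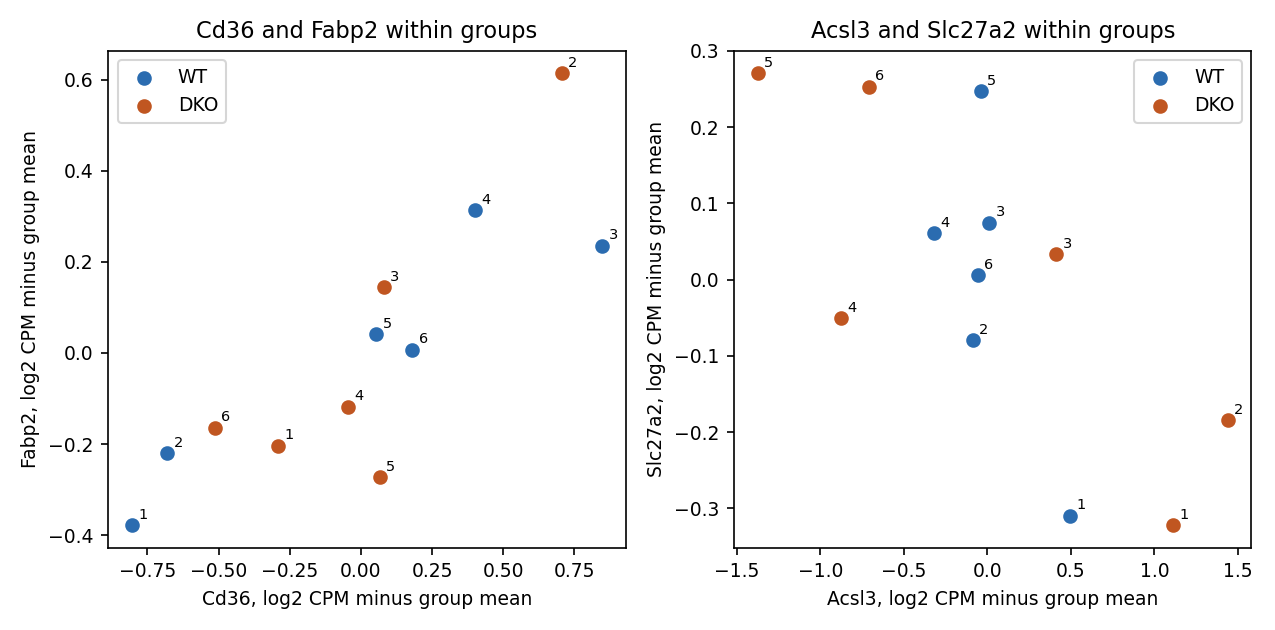
Log2 CPM minus the group mean in each library, Fabp2 against Cd36 on the left and Slc27a2 against Acsl3 on the right, WT in blue and DKO in orange, with replicate numbers. Cd36 and Fabp2 line up over both groups (r = 0.84), and the highest Acsl3 libraries, DKO 1 and DKO 2, are the lowest DKO libraries in Slc27a2.

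By the same measure, 10340 genes with established symbols that averaged 1 log2 CPM or more were ranked by likeness to each member over the 12 libraries. How high the top of so long a ranking would reach by chance was not computed, so the genes are given as a description. The genes most like Slc27a2 were Nim1k (r = 0.97), Reep6 (0.95) and Eif4b (0.94). For Acsl3 they were Gmeb1, Ccbl2 and Ncstn (each 0.93), and for Fabp1 Fbxl6 (0.94), Rbm8a (0.92) and Fam174a (0.91). For Fabp2 they were Acaa1b (0.90), Olig1 (0.89) and Prlr (0.89), and for Cd36 Ccdc88c (0.87), the member Fabp2 (0.84) and Cln3 (0.84). Fabp5 was followed by Arrb2, Snx12 (each 0.89) and Fen1 (0.88), Fabp4 by Lacc1 (0.90), Vat1 (0.89) and Tob2 (0.88), and Dbi by Ogfr (0.91), H2-Q10 and Srf (each 0.90). Slc27a4 was followed by Treml4 (0.85), Akna and Mtrf1 (each 0.83). No such genes are given for Slc27a1, whose 3 values at the lowest of the table would set the ranking.

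The wider pathway was read from 9 lists of 59 other genes of fatty acid supply, binding and activation, of which 46 were measured, 4 of them under an older symbol. In DKO 3 fell, 0 rose, 11 were higher and 35 lower, with a median log2 fold change of -0.19. The 3 calls were 6.52% of the 46, beside 1.74% of all 12284 genes, of which 6236 were higher and 6048 lower in DKO. Of the 13 measured hepatocyte markers, which share Hnf4a with these lists, 10 were lower and 3 higher, at a median of -0.17. Whether the lean towards lower values is particular to the 46 genes was not tested. Quantile normalization moved Slc27a5 from -0.21 to -0.09 and Scarb1 from -0.19 to -0.08. It moved Cavin3 from -0.67 to -0.82 and Cfd from -4.12 to -4.31. The 3 of the 46 that fell were Lmf1, Lipc and Cfd.

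Lipoprotein lipases and their partners, which free fatty acids from lipoproteins, held 2 of the 3. Of 11 genes 9 were lower and 2 higher, with a median log2 fold change of -0.46. Lmf1, the maturation factor of these lipases, fell to 70.1% of WT, 5.58 ± 0.07 against 5.06 ± 0.13 log2 CPM (SD, n = 6 each), without overlap of the groups (limma adjusted p = 0.00566; log2 fold change -0.51, SE 0.08). It kept its call without any 1 library (adjusted p up to 0.0188). Lipc, hepatic lipase, fell from 7.12 ± 0.11 to 6.65 ± 0.23 log2 CPM, 72.6% of WT (limma adjusted p = 0.0372), and lost its call in 9 of 12 cases with 1 library left out (adjusted p up to 0.0878). It also lost it without both libraries numbered 1 (0.0716), without the mean trend (0.0709) and with quantile normalization (0.0780). Lpl, lipoprotein lipase, named after its value was seen, was 4.62 ± 0.48 in WT and 5.66 ± 0.63 in DKO and did not pass (log2 fold change 1.04, limma adjusted p = 0.0787).

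The other families of the same kinds held 0 called genes by limma. Of the other fatty acid transport proteins 2 of 3 were measured, and Slc27a5, the bile acid and very long-chain acyl-CoA synthetase of the liver, had a log2 fold change of -0.21 (SE 0.08, limma adjusted p = 0.193). Slc27a3, named after its value was seen, had 1.05 (SE 0.42, limma adjusted p = 0.227). Of the other long-chain acyl-CoA synthetases 3 of 6 were measured; Acsl1, the main form of the hepatocyte, averaged 10.2 ± 0.57 log2 CPM in WT against 9.57 ± 0.20 in DKO (SD, n = 6 each), or 63.5% of the WT level (limma adjusted p = 0.136). Fabp7 was the 1 measured gene of 6 other binding proteins (log2 fold change 0.32, limma adjusted p = 0.495). Among 5 of 6 other acyl-CoA and lipid binding proteins 4 were lower and 1, Acbd3, a Golgi protein, was higher without overlap of the groups, and it did not pass (log2 fold change 0.28, limma adjusted p = 0.206).

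Relatives of CD36 and enzymes that add or remove its palmitate were lower in 5 of 5 cases. Scarb1, the HDL receptor, had a log2 fold change of -0.19 (limma adjusted p = 0.353). Of 5 genes of caveolae 2 were higher and 3 lower, and Cavin3, listed as Prkcdbp in the table, had the smallest p (log2 fold change -0.67, limma adjusted p = 0.289). Of 10 nuclear receptors and regulators of uptake genes 8 were lower, with Cebpa, a hepatocyte transcription factor, at 73.9% of WT (limma adjusted p = 0.162), a value that passed without DKO 6 (adjusted p = 0.0371). Unadjusted p-values below 0.05 numbered 4 in that list, 0 among the relatives of CD36, 1 among caveolae, 3 among the acyl-CoA and lipid binding proteins, 2 and 1 among the transport proteins and synthetases, 0 among the other binding proteins, 6 among the lipases and partners and 2 among the steatosis genes below. Over the 9 lists these were 19 of 46 genes, where 16.4% of all genes had such a p. As the lists were chosen with earlier results of these data known, this comparison is no test of them. In the list of steatosis genes linked to PPARγ, 4 of 7 were measured and lower, and Cfd, the adipocyte protease adipsin, fell (log2 fold change -4.12, SE 0.91, limma adjusted p = 0.0364). Cfd stood at the lowest value of the table in 2 libraries, so this size depends on how low values were treated. Its call ended in 10 of 12 cases with 1 library left out (adjusted p up to 0.0850).

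**Figure D5:**
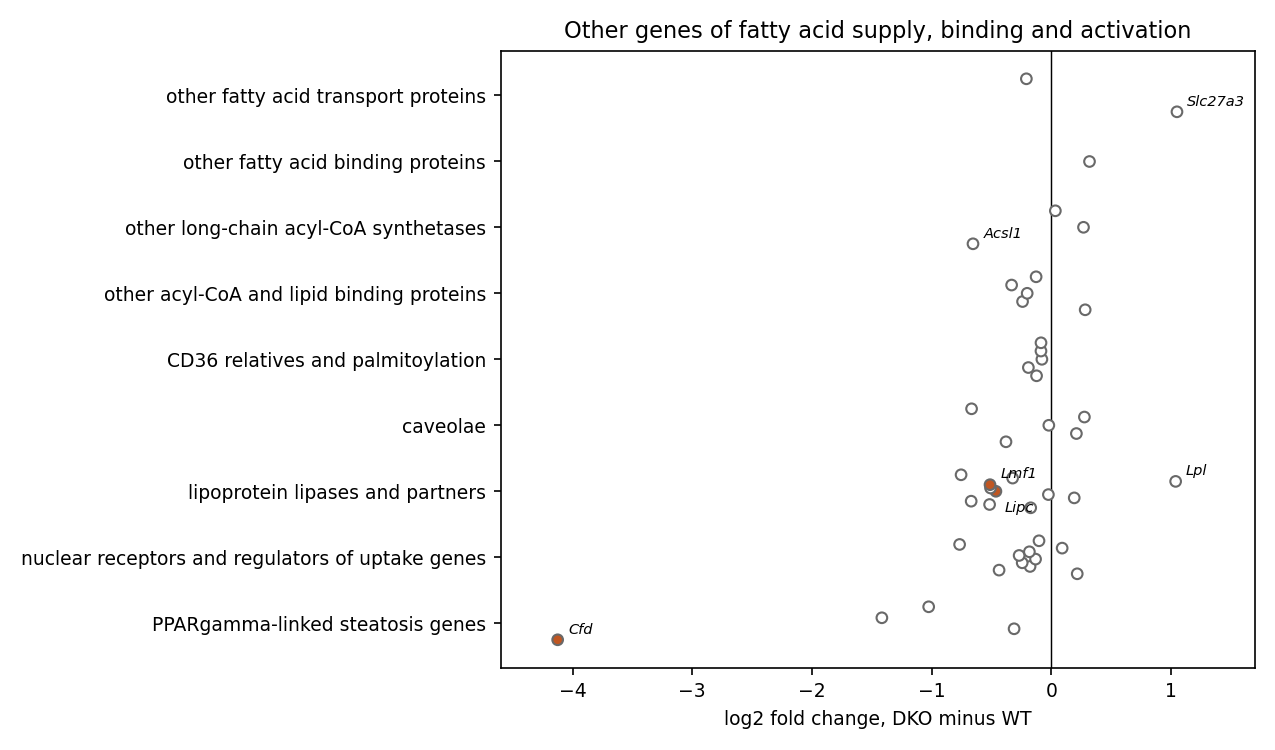
Log2 fold change of DKO minus WT (horizontal axis) for 46 other genes of fatty acid supply, binding and activation, 1 row per list; filled points are genes called at a limma adjusted p below 0.05. The filled points are Lmf1, Lipc and Cfd, and Lpl at 1.04 and Slc27a3 at 1.05 are the highest open points.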

How the data were processed

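Polyadenylated liver RNA was sequenced in 12 libraries, grouped by the genotype label. The authors deposited log2 CPM values, filtered and normalized between libraries, per the name of the table; the sources used here give neither the filter nor the added count or factors. In the submitters' processing notes stand kallisto 0.46.2, edgeR, limma and GRCm39 (mm39), with no roles. A row without a name (0.0075% to 0.0148% of a library's CPM) was left out. How reads of pseudogenes or paralogs were assigned is not stated, which can touch Fabp5, for which RefSeq lists the pseudogene Fabp5l2.

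A 2-sided limma 3.58.1 fit in R 4.3.3 (lmFit, then eBayes with a mean trend) compared the groups on the deposited values of all 12 libraries with no further filter, and p-values were adjusted over 12284 genes. Members also had 2-sided exact permutation tests over the 924 divisions into 6 and 6 (smallest possible p 0.00216), which are not adjusted. Older symbols were matched through RefSeq synonyms. RefSeq promoters and GENCODE M21 transcript lengths are of GRCm38, another build than the notes name. Figures used matplotlib 3.10.9.

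The members and lists were chosen with earlier results of these data known. Named genes were all members, the 2 called genes of each list with the largest change (or the 1 with the smallest p), the 3 genes most like each member, Acly and Acss2. Alternatives were no mean trend, robust limma, log2(CPM + 1), a mean of at least 1 log2 CPM, array weights, a block for the replicate number, subtracted library medians, quantile normalization, each library left out, and, chosen after seeing the data, both libraries numbered 1 left out.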

Additional observations from a re-analysis of the deposited data

How the results depend on the processing

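Over 21 alternatives, the 10 members gave 183 values with the same direction and side of the threshold, 12 with the opposite sign (Cd36 and Acsl3), 11 in which Slc27a2 lost its call and 3 in which Fabp5 gained one. Cd36 was -0.011 with subtracted medians, -0.0063 with array weights and -0.092 without both libraries numbered 1, and -0.15 to 0.18 with 1 library left out; Acsl3 ranged from -0.31 to 0.26 with 1 left out and from -0.33 to 0.26 over all alternatives. The count of called genes (214) was 138 without the mean trend, 109 with quantile normalization and 356 with array weights, and 92 to 373 with 1 library left out. That of members (1) was 0 without the mean trend and with quantile normalization, 2 without both libraries numbered 1, and 0 to 2 with 1 left out. That of the 46 other genes (3) was 1 without the mean trend and 1 to 4 with 1 left out. The cause was not tested. With the replicate number as a block, limma called 397 genes, 2 members (Slc27a2, adjusted p = 0.00944, and Fabp5, 0.0178) and 6 of the other genes (Acsl1 among them, 0.0299). Same-numbered libraries correlated at -0.077 to 0.29 in their deviations, with 2 of the 6 pairs (numbers 1 and 5) above 0.1. Since the deviations are from each group's mean, correlations across groups centre near 0. These values thus do not settle whether the numbers pair the libraries, and the block was kept as an alternative only. As a hint from the data, 4 of 6 WT and 3 of 6 DKO libraries correlated best with their own number in the other group. Slc27a1 has no value under the filter on the mean. Depth is unknown, so low values such as Slc27a1 have no counting interval.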
